A study of Homo sapiens with 8 samples.

Results

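This account covers the H3K36me3 domains of HepG2 cells that were called as 1 peak in control cells and as 2 or more separate peaks after SETD2 knockdown. A control peak was taken when it was shorter than 20 kb and 2 or more knockdown peaks overlapped it by at least 1 bp each. This held for 2405 of the 35375 control peaks, called broken-up peaks here, and the knockdown peaks over them are called pieces. They were set beside the 9813 control peaks under 20 kb that overlapped exactly 1 knockdown peak, called single-match peaks. Another 21084 overlapped none, so broken-up peaks were 7.22% of the 33302 control peaks under 20 kb. The peaks were thus selected on measured values, the positions of both peak lists, so all values below describe them and none is tested.

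HepG2 is a human hepatocellular carcinoma line. The knockdown cells stably carried a short hairpin RNA (shRNA) against SETD2, and the control cells a non-specific shRNA. Both had been infected with lentivirus in 4 µg/mL polybrene and selected with 1 µg/mL puromycin. The 8 libraries formed 4 groups of 2 replicates, namely immunoprecipitate (with an Abcam antibody to H3K36me3) and input DNA from the knockdown cells and the same from the control cells. The authors pooled both replicates of a group before calling peaks, so each condition had 1 list and no spread between replicates. The pooled immunoprecipitates held 67053273 tags in the knockdown and 47880817 in the control after removal of duplicates. The knockdown list, from the deeper library, held 23488 peaks covering 111 Mb, and the control list covered 229 Mb. Positions are in hg19, no gene was assigned to them, and SETD2 itself was not measured here.

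As background, SETD2 travels with elongating RNA polymerase II and trimethylates lysine 36 of histone H3 along the bodies of transcribed genes, so the mark forms long continuous domains. Proteins with a PWWP domain, such as the DNA methyltransferase DNMT3B, bind it, as does METTL14 of the RNA m6A methyltransferase. A peak caller turns such a domain into 1 peak where enrichment stays above its limit along the whole stretch, and into several where it does not.

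Broken-up peaks were mid-sized to long domains, and the longer a control peak was, the more often it was in pieces. They had a median length of 12.2 kb (quartiles 8.63 and 15.5 kb), against 5.38 kb (3.37 and 8.63 kb) for single-match peaks. Of the 12218 control peaks under 20 kb with any knockdown peak, 19.7% were broken up (exact Clopper-Pearson 95% interval 19.0 to 20.4%, here and below for counting error only). Among peaks with a knockdown counterpart, 2.51% were broken up below 5 kb (116 of 4613) and 16.8% from 5 to 10 kb (708 of 4222). From 10 to 15 kb the share was 40.9% (38.8 to 42.9%), and from 15 to 20 kb it was 57.9% (55.0 to 60.7%). For control peaks of 20 kb or more it was 74.2%, so the limit of 20 kb cut through a gradient. Length enters this directly, since a longer peak has more room for a second piece.

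**Figure D1:**
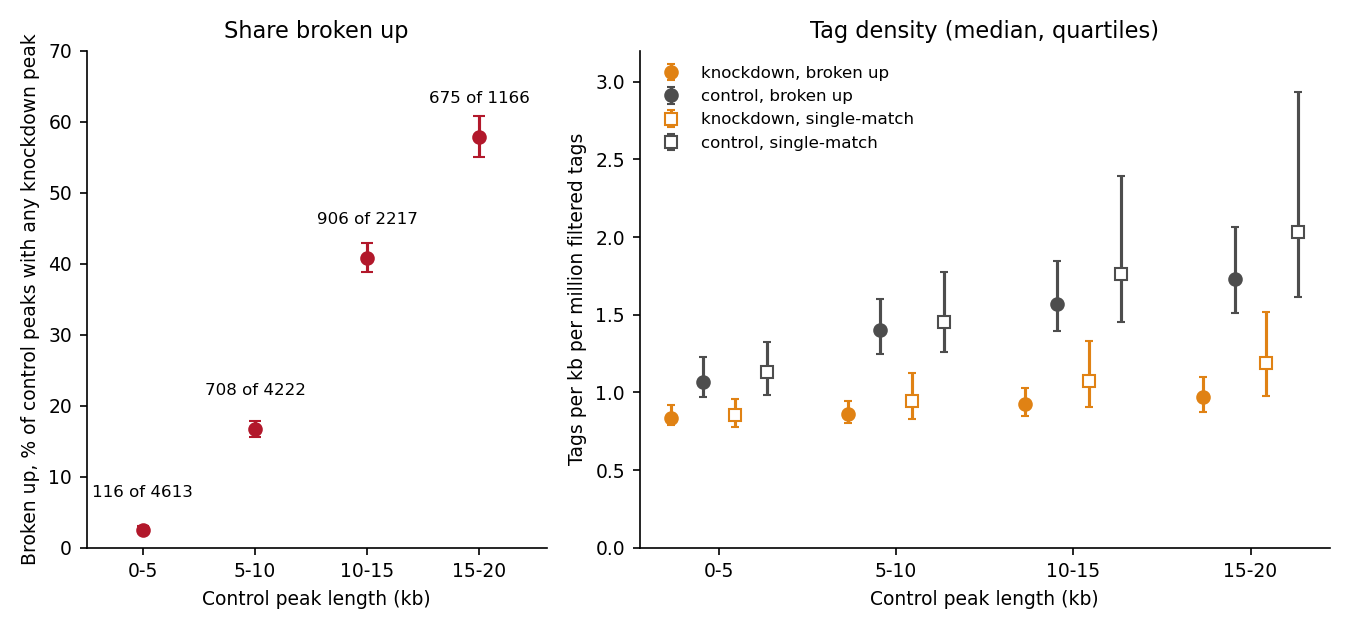
Left, share of control peaks with any knockdown peak that were broken up (y axis, percent, bars are exact 95% binomial intervals) by control peak length in kb. Right, tags per kb per 1000000 filtered tags (medians, bars are quartiles) in the knockdown (orange) and control (grey) for broken-up peaks (filled circles) and single-match peaks (open squares). The share goes from 2.51% to 57.9% with length, and from 5 kb upwards broken-up peaks lie below single-match peaks of the same length in both conditions.

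Over all lengths under 20 kb, the reverse event was far less common. Of the 19195 knockdown peaks under 20 kb that overlapped a control peak, 460 overlapped 2 or more of them, or 2.4%. This share and the 19.7% of control peaks were not matched on length. All knockdown peaks had a median length of 3.27 kb, and control peaks below 5 kb with a counterpart were broken up in 2.51% of cases. An asymmetry was also seen from the side of the gaps. Of 8202 pairs of neighbouring knockdown peaks less than 3000 bp apart, 5087 (62.0%) had the gap spanned by 1 control peak of any length. Of 14896 such pairs of control peaks, 516 (3.46%) had it spanned by 1 knockdown peak. For gaps under 100 bp the shares were 78.4% of the knockdown pairs and 9.66% of the control pairs, and for gaps of 1000 to 3000 bp they were 49.1% and 0.854%. Close neighbours were thus frequent in both lists, but the gaps between those of the knockdown list were mostly spanned by 1 control peak. The control list covers more of the genome, and the part of this and of peak length in the asymmetry was not tested.

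Most broken-up peaks were in 2 pieces. There were 1832 with 2 pieces (76.2%), 474 with 3 (19.7%), 84 with 4 and 15 with 5. Peaks in 2 pieces had a median length of 11.0 kb, those in 3 pieces 14.95 kb, those in 4 pieces 17.1 kb and those in 5 pieces 16.9 kb. The pieces themselves were shorter where there were more of them, with a median of 3.07 kb in peaks with 2 and 2.22 kb in peaks with 5. In all, 5459 knockdown peaks were pieces, which is 23.2% of the knockdown list, and 38 of them lay over more than 1 broken-up peak.

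The 3 peaks picked as having the most pieces (ties by control fold enrichment) show how a continuous domain was divided. On chromosome 22 from 22315302 to 22330878, the 5 pieces ran from 1.42 to 3.50 kb in length and covered 80.0% of the control peak, with gaps of 55 to 689 bp. The piece holding the control summit was the densest, at 1.04 tags per kb per 1000000 filtered tags (Poisson 95% interval 0.918 to 1.18). This unit of tag density is used throughout. On chromosome 1 from 47141212 to 47159693, 5 pieces covered 95.9% of the peak and the closest of them were 4 bp apart. On chromosome 9 from 123618911 to 123638059, pieces of 5.87 and 4.39 kb with densities of 1.04 and 1.12 lay among 3 short pieces at 0.677 to 0.721. There the dense pieces stood apart from the sparse ones by more than counting error.

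Gaps were mostly short. The widest gap of a broken-up peak had a median of 804 bp (quartiles 280 and 2019 bp). It was under 300 bp in 644 peaks (26.8%) and under 1000 bp in 1337 (55.6%). Only 96 peaks (3.99%) had a gap of 5000 bp or more. The median widest gap was 263.5 bp in peaks under 5 kb and 1416 bp in peaks of 15 to 20 kb. Its centre lay at a median of 50.2% of the peak's length (quartiles 38.0 and 62.5%). A central position is partly built in, because no piece was shorter than 0.998 kb. With knockdown peaks up to 1000 bp apart merged, 1068 broken-up peaks were left, 8.74% of those with a counterpart.

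**Figure D2:**
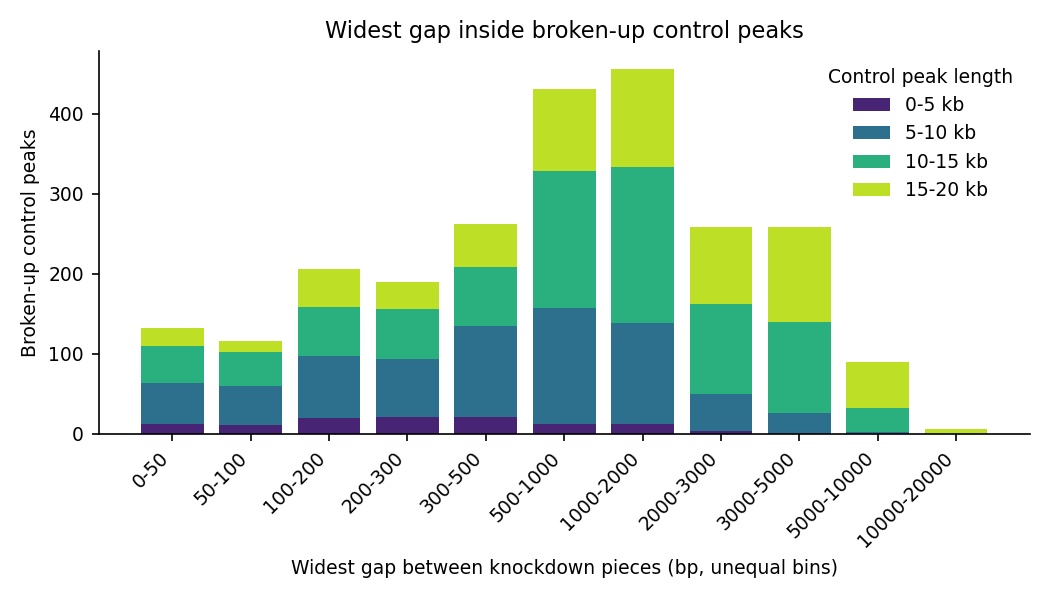
Number of broken-up control peaks (y axis) by the width of the widest gap between their knockdown pieces (x axis, bp, bins of unequal width), stacked by control peak length. In 1337 of 2405 peaks the widest gap is under 1000 bp, and in 96 it is 5000 bp or more.

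Both ends of the range were inspected. The widest gap, 14.9 kb, was on chromosome 1 from 64107446 to 64126162, and the control summit lay inside it. The piece on its left was the end of a 19.2 kb knockdown peak that lay mostly outside the control peak. On chromosome 15 from 25623530 to 25641534 a gap of 14.0 kb also held the control summit, and the pieces covered 19.6% of the peak. On chromosome 1 from 172523680 to 172540928 a gap of 11.7 kb left pieces at both ends, of 2.27 and 3.22 kb. The caller's false discovery rate for these control peaks was 0.07%, 11.24% and 8.35%, in the order given. At the other extreme, the pieces on chromosome 1 from 41002605 to 41013762 were separated by 1 bp, and so were those from 52546177 to 52557497 on the same chromosome. A gap of 1 bp also lay in the peak on chromosome 12 from 12298285 to 12318278, beside a second gap of 614 bp. In the first of these the pieces, each 1.41 kb long with 64 tags, covered 25.3% of the control peak, and the rest lay outside them.

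More length was left uncovered at the ends of broken-up peaks than in the gaps between pieces. Together the 2405 peaks spanned 29.0 Mb, of which pieces covered 65.1%, the ends outside the outermost pieces took 21.9% and the gaps took 13.0%. In 1544 peaks (64.2%) the uncovered ends were longer than the gaps. The median was 2020 bp at the ends and 860 bp in gaps. The called region was thus also shorter at its ends in most of these peaks. In single-match peaks, which have no gaps, the uncovered ends took 38.5% of the length.

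At matched length, broken-up peaks were covered as much as single-match peaks or more, and more evenly. Over all lengths the median covered share was 67.5% in broken-up peaks and 68.7% in single-match peaks. From 5 to 10 kb it was 70.1% and 56.9%, and from 10 to 15 kb it was 64.1% and 55.8%. From 15 to 20 kb the medians were 66.3% (quartiles 47.6 and 82.1%) and 62.3% (27.7 and 93.0%). Long single-match peaks thus ran from nearly whole to a small remnant, and broken-up peaks of that length lay between. A peak that holds 2 pieces cannot be left with a single short remnant, so part of this narrower range follows from the rule.

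The control summit, the highest point of the control peak, was nearly always inside a piece. It lay in a piece in 2294 of 2405 broken-up peaks (95.4%, 94.5 to 96.2%), although pieces covered 65.1% of the length. It lay in a gap in 58 peaks (2.41%), against the 13.0% of length that gaps took, and outside the outermost pieces in 53 (2.20%). Where the summit was in a piece, that piece was the densest in 1765 of 2294 peaks (76.9%) and the longest in 1634 (71.2%). Part of this is built in, since most broken-up peaks had 2 pieces and the longest held a median of 59.2% of covered length. Most of the strongest points of the broken-up peaks were therefore also called in the knockdown, in the denser piece more often than not. The rule already required pieces over these peaks, whereas 21084 control peaks under 20 kb overlapped no knockdown peak. Single-match peaks had the summit covered in 90.8% of cases. From 15 to 20 kb the shares were 96.0% (94.2 to 97.3%) in broken-up and 89.6% (86.6 to 92.2%) in single-match peaks. Below 5 kb they were 93.1% (86.9 to 96.98%) and 92.0% (91.1 to 92.8%), and the intervals overlapped.

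Pieces of 1 control peak were rather alike in density. The densest piece exceeded the sparsest by a median of 1.19 times (quartiles 1.09 and 1.32). Their medians were 0.978 and 0.798. In 581 peaks (24.2%) the Poisson 95% intervals of the densest and the sparsest piece did not overlap. Picking the highest and the lowest of several pieces separates them even where they share 1 density. In the other direction, every piece had to pass the caller's limit, which leaves out sparser stretches and narrows the range.

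Tag density was lower in the knockdown pieces than in the control peak at nearly all broken-up peaks, and from 5 kb upwards the size of the difference was close to that of single-match peaks of the same length. Pieces had a median density of 0.914 (quartiles 0.834 and 1.02), and the broken-up control peaks 1.54 (1.34 and 1.82). The control values were thus spread more widely than those of the pieces. The density was below that of the control in 2387 of 2405 peaks, and with Poisson 95% intervals apart in 2297 (95.5%). Over all control peaks under 20 kb with a counterpart, the share with intervals apart was 74.8%, and broken-up peaks are longer and hold more tags, which narrows the intervals. The rule uses the same contrast, so nothing is read from these counts. Knockdown over control density had a median log2 ratio of -0.76 (quartiles -0.91 and -0.60) in broken-up peaks and -0.57 (-0.77 and -0.37) in single-match peaks. Within length bins the medians were close, at -0.69 and -0.65 from 5 to 10 kb, -0.77 and -0.76 from 10 to 15 kb, and -0.82 and -0.84 from 15 to 20 kb. The density of pieces leaves out the gaps and the uncovered ends, where no tag counts were given, and no background was subtracted. For single-match peaks it leaves out the uncovered ends. The part left out differed between the groups, with a median of 70.1% covered in broken-up and 56.9% in single-match peaks from 5 to 10 kb.

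Broken-up peaks had lower median densities than single-match peaks of like length in both conditions. In the knockdown, pieces had a median density of 0.925 from 10 to 15 kb, against 1.08 for the counterparts of single-match peaks. From 15 to 20 kb the medians were 0.970 (quartiles 0.876 and 1.099) and 1.19 (0.975 and 1.52). In the control, broken-up peaks of 10 to 15 kb had 1.57 and single-match peaks 1.76, and those of 15 to 20 kb had 1.73 (1.51 and 2.06) and 2.03 (1.61 and 2.93). The quartile ranges overlapped in each case. From 5 to 10 kb the medians were 0.863 and 0.946 in the knockdown, and 1.402 and 1.451 in the control. Below 5 kb they were 0.838 and 0.852 in the knockdown, and 1.07 and 1.13 in the control.

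As a share of all control peaks, being broken up was most frequent at middle control densities for peaks of 10 kb or more. All control peaks under 20 kb, including those without a counterpart, were sorted by density into 5 groups of equal size (quintiles) within each length bin. From 10 to 15 kb, the share broken up was 27.8% in the lowest quintile, 43.5% in the next and 14.5% (11.7 to 17.8%) in the highest. In the same quintiles, 35.5%, 37.6% and 75.3% were single-match peaks and 36.6%, 18.8% and 10.1% had no knockdown peak. From 15 to 20 kb, 53.4% were broken up in the lowest quintile, 64.9% in the middle one and 21.8% (16.99 to 27.3%) in the highest, where 63.5% were single-match peaks. From 5 to 10 kb the broken-up share was 4.76% in the lowest quintile, 15.5% in the one below the highest and 10.1% in the highest. Having no knockdown peak was thus most frequent in the lowest quintile, and from 5 kb upwards division was most frequent in a quintile between the lowest and the highest. Below 5 kb division stayed under 1% of control peaks in every quintile. Among peaks with a counterpart alone, the lowest quintile differed less from the middle. From 15 to 20 kb the share was 67.0% (60.2 to 73.3%) in the lowest quintile, 71.4% (65.2 to 77.0%) in the middle one and 25.6% in the highest. From 10 to 15 kb it was 43.9% (38.6 to 49.3%) in the lowest and 53.6% (48.9 to 58.4%) in the next. In the middle one it was 48.3% (43.7 to 52.9%), and in the highest 16.2%.

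**Figure D3:**
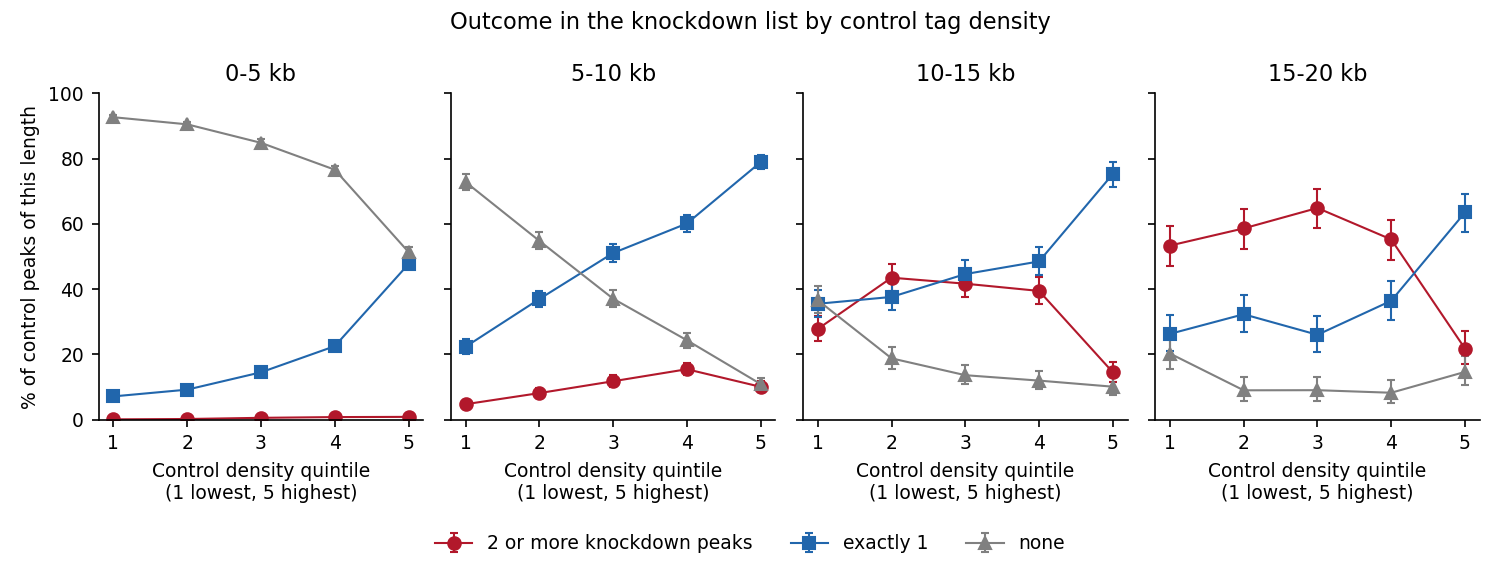
Share of control peaks (y axis, percent, bars are exact 95% binomial intervals) that overlapped 2 or more knockdown peaks (red circles), exactly 1 (blue squares) or none (grey triangles), by quintile of control tag density within each length bin. From 10 kb upwards the broken-up share is highest in a middle quintile, at 43.5% and 64.9%, and lowest in the densest, at 14.5% and 21.8%.

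By the authors' own scores, the broken-up peaks had a low error rate in the control list and their pieces a high one in the knockdown list. The false discovery rate (FDR) that the caller assigned, in percent, had a median of 69.2% for pieces and 0% for broken-up control peaks. Of the pieces, 180 of 5459 (3.30%) had an FDR of 5% or less, against 1244 of 23488 (5.30%) in the whole knockdown list. In the control list, 2234 of the 2405 broken-up peaks (92.9%) met that limit, against 79.2% of single-match peaks and 50.5% of all control peaks. At least 1 piece met it in 173 broken-up peaks (7.19%), close to the 6.67% of single-match peaks whose knockdown peak did. The pieces resembled their whole list, whose median FDR was 68.9%. The caller sets this rate within each list, so its values are not on 1 scale across the lists. With an FDR of 5% or less required in both, 8 broken-up peaks were left of 812 with a counterpart, and with a fold enrichment of 5 or more, 98 of 2268. Fold enrichment over local input, the authors' value within each list, had a median of 3.71 for pieces and also 3.71 over all knockdown peaks. Within the control list, the median was 8.27 for broken-up and 6.48 for single-match peaks.

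The 5 broken-up peaks with the highest control fold enrichment all had a lower density ratio than the median broken-up peak, and denser pieces. They were picked on control signal, and control density divides the ratio, so a lower ratio may partly follow from the pick. They were also 14.3 to 19.3 kb long, and the median log2 ratio was -0.77 from 10 to 15 kb and -0.82 from 15 to 20 kb. On chromosome 8 from 42951474 to 42967850 the pieces had a density of 1.54 (1.46 to 1.62) and the control peak 4.22 (4.08 to 4.37), a log2 ratio of -1.46. The next broken-up peak on it, from 42969048 to 42987733, had 1.45 (1.37 to 1.54) and 2.62 (2.51 to 2.73). In that second peak a central piece of 7.33 kb at 1.79 lay between short pieces at 0.863 and 0.784. On chromosome 12 from 8071028 to 8089013 the densities were 1.94 (1.86 to 2.02) and 5.84 (5.68 to 6.01), with pieces 30 bp apart. The peak on chromosome 19 from 53340137 to 53359460 had 1.35 (1.28 to 1.42) and 3.66 (3.54 to 3.79), across a gap of 392 bp. On chromosome 12 from 57104606 to 57118937 the values were 1.79 (1.71 to 1.88) and 3.202 (3.07 to 3.34), with a gap of 62 bp. Of these 5 peaks, 4 were divided by gaps of under 1000 bp alone. For scale, the 2 single-match peaks with the highest fold enrichment, both on chromosome 19, had densities of 1.96 and 2.25 in the knockdown and 5.20 and 6.10 in the control.

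**Figure D4:**
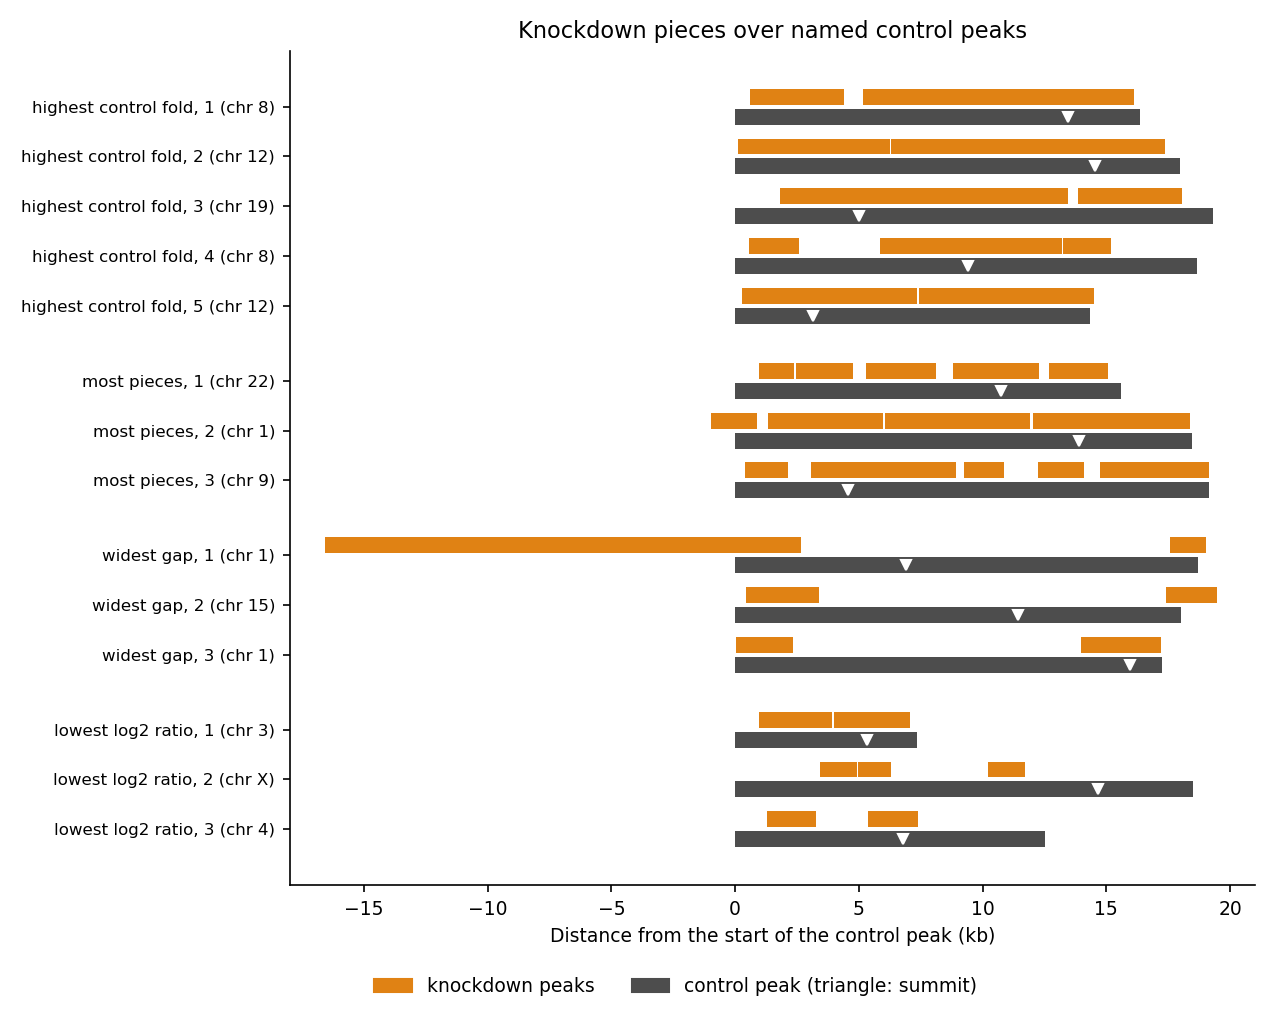
Knockdown peaks (orange, upper bar of each pair) over the control peak they divide (grey, lower bar, white triangle at its summit), drawn to scale by distance from the control peak's start in kb, for the peaks with the highest control fold enrichment, the most pieces, the widest gaps and the lowest density ratio. Gaps of a few bp, such as the 4 bp in the chromosome 1 peak with 5 pieces, are too narrow to be seen, whereas gaps of 11.7 to 14.9 kb leave most of a control peak bare.

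Among broken-up peaks with 500 or more control tags, the log2 density ratio ran from -2.06 to -0.09. The lowest was on chromosome 3 from 129368202 to 129375547, with 0.890 (0.800 to 0.987) in the pieces and 3.72 (3.52 to 3.93) in the control. Next came chromosome X from 131512096 to 131530598, with 0.710 and 2.32, where 3 pieces covered 23.4% of the peak. Then came chromosome 4 from 110660626 to 110673160, with 0.692 and 2.12. All 3 were separated beyond counting error. The highest ratio was on chromosome 11 from 74712595 to 74722120, where the intervals of the pieces, at 1.31, and of the control, at 1.39, overlapped. On chromosome 1 from 165644949 to 165652881 the values were 1.24 and 1.38, and on chromosome 9 from 139990096 to 140003458 they were 1.98 and 2.21. In that last peak 1 piece of 4.34 kb held a density of 2.53 (2.36 to 2.72) and the other, of 1.95 kb, held 0.744 (0.603 to 0.907).

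Over all 2405 peaks, 2 were denser in the knockdown with intervals apart, or 0.0832%, against 0.467% of all control peaks under 20 kb with a counterpart. They are named because of that value. On chromosome 1 from 108732453 to 108737805 the pieces had 1.20 (1.15 to 1.25) and the control 0.839 (0.730 to 0.959). On chromosome 8 from 82617504 to 82621028 they had 1.18 (1.12 to 1.25) and 0.954 (0.812 to 1.11). Both control peaks were short, at 5.35 and 3.53 kb, and pieces covered 52.7% and 32.9% of them. The pieces lay mostly outside, with 11.2% of 25.3 kb and 7.33% of 15.8 kb inside the control peak. Their density is taken over whole pieces, so it does not show a higher density within these control peaks.

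At the limit of 20 kb, the 2 shortest divided peaks left out had higher densities than the 2 longest broken-up peaks. Those 2 longest lay below the median control density of broken-up peaks of 15 to 20 kb, 1.73, so no step at the limit is read from them. The longest broken-up peaks, of 19998 and 19995 bp, were on chromosome 12 from 59264902 to 59284899 and on chromosome 3 from 113509921 to 113529915. They held 3 and 5 pieces with densities of 1.01 and 0.747, and the control densities were 1.44 and 1.30. The shortest divided control peaks left out were of 20000 bp on chromosome 3 from 43372524 to 43392523 and of 20003 bp on chromosome 16 from 68346146 to 68366148. They held 2 and 3 pieces with densities of 1.12 and 1.09, against 2.24 and 2.13 in the control. At the other limit, a piece overlapped by 2 bp in the peaks on chromosome 5 from 6744385 to 6757676 and on chromosome 2 from 10125558 to 10138763. In the chromosome 5 peak the other piece covered nearly the whole control peak, so its second piece was a neighbour that touched its edge. Over all broken-up peaks, 672 (27.9%) had a piece that reached outside the control peak.

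Broken-up peaks were spread over all chromosomes from 1 to 22 and X, with a low share on a few. The share of control peaks under 20 kb with a counterpart that were broken up had a median of 20.6% over the 23 chromosomes and went from 3.49% to 25.3%. The lowest was on chromosome 20, with 3 of 86 (0.725 to 9.86%), followed by chromosome 2 with 47 of 480 (9.79%, 7.28 to 12.8%), chromosome 6 with 54 of 417 (12.9%) and chromosome 16 with 50 of 339 (14.7%). The highest were chromosomes 22 (75 of 297, 25.3%) and 19 (164 of 651, 25.2%). Chromosomes 20, 2, 6 and 16 held few divided peaks for their number with a counterpart.

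The low counts were also low for the length and control density of the peaks. Had each length bin and density quintile been broken up at its rate over all chromosomes, chromosome 20 would have held 19.8 divided peaks instead of 3, chromosome 2 123 instead of 47, chromosome 6 92.2 instead of 54 and chromosome 16 73.9 instead of 50. Chromosome 14 was also low, with 46 against 61.7. Chromosome 19 was the furthest above, with 164 against 127. On chromosome 20, control peaks with a counterpart had median densities of 1.33 in the knockdown and 2.31 in the control. These were 1.06 and 1.72 on chromosome 2, 1.01 and 1.57 on chromosome 6, and 1.01 and 1.66 on chromosome 16. On chromosome 14, also low, they were 0.863 and 1.43, and on chromosome 19, the furthest above, 0.954 and 1.58. Quintiles match density only within broad groups, and the part of density in the low counts was not tested. On chromosome 1 the median densities were 0.932 and 1.27, and there 298 peaks were broken up against 265 by length and density. HepG2 is known to carry extra copies of several chromosomes, 2, 14, 16, 17 and 20 among them. On chromosome 17 the count was 125 against 129, close to even. Copy number was not measured here, and its part in these shares was not tested.

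**Figure D5:**
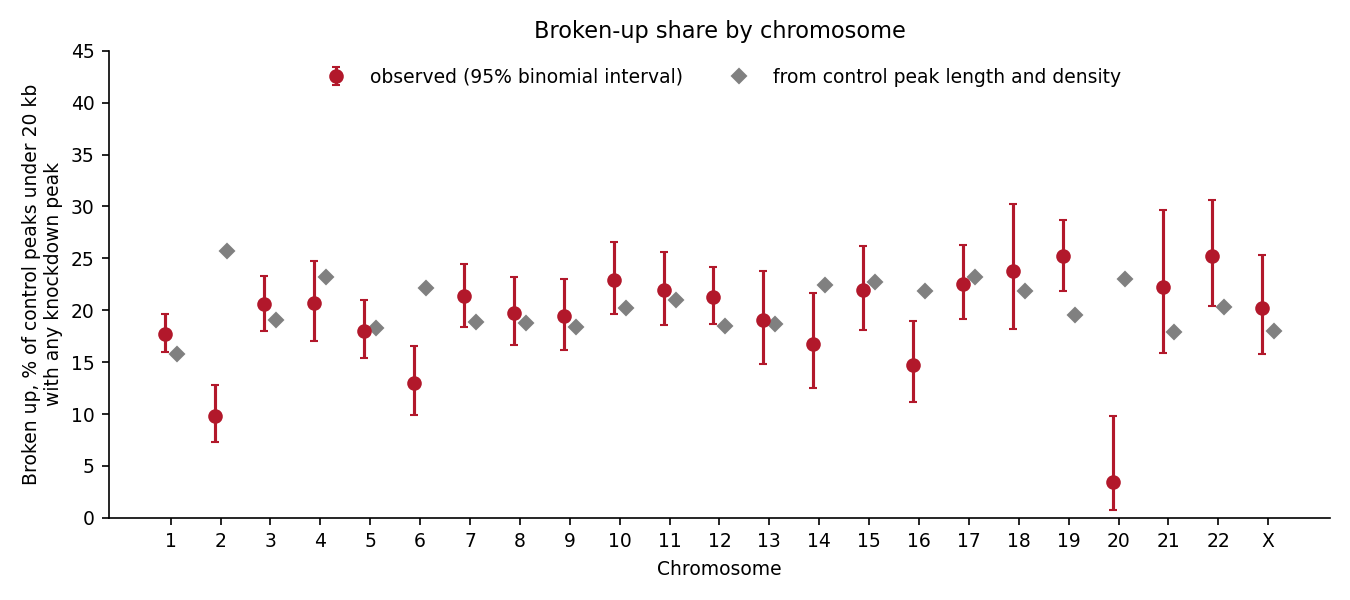
Share of control peaks under 20 kb with any knockdown peak that were broken up (y axis, percent) on chromosomes 1 to 22 and X, as observed (red circles, bars are exact 95% binomial intervals) and as given by the rates of all chromosomes for peaks of the same length and control density (grey diamonds). Chromosomes 20, 2, 6, 14 and 16 lie below their diamond by more than the interval, and chromosomes 1, 12, 19 and 22 lie above by more than it.

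All 3 broken-up peaks of chromosome 20, named because they are so few, were in 2 pieces and were denser in the control than the median broken-up peak. From 34129977 to 34148483 the densities were 1.06 in the pieces and 2.33 in the control, and from 34499879 to 34513402 they were 0.965 and 1.66. From 42221333 to 42235502, where the gap was 4330 bp, they were 1.16 and 2.44. The median log2 ratio of broken-up peaks was below 0 on all 23 chromosomes, and lowest on chromosome 20, at -1.07. On chromosome 1 it was -0.67, and pieces there covered a median of 77.2% of a peak with a median widest gap of 604.5 bp. On chromosome 18 they covered 54.1%, with a gap of 901 bp, and on chromosome 14 56.6%, with 1003.5 bp. Chromosomes therefore differed in how often domains were divided, and those named here also in how much of a divided domain was left. The covered shares and gaps were not matched on peak length, with which both changed.

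Close neighbours were common throughout the control list. Another control peak lay within 10 kb of 2175 broken-up peaks (90.4%), against 82.9% of single-match peaks and 84.7% of all control peaks under 20 kb. An adjacent peak within that distance, of any length, was also divided for 617 broken-up peaks (25.7%), for 15.8% of single-match peaks and for 12.6% of all under 20 kb. These shares were not matched on length. They fell into 1092 windows of 1 Mb, of which 496 held just 1. The most crowded window, singled out for its count, was on chromosome 17 from 35000001 to 36000000, where 15 of the 29 control peaks under 20 kb with a counterpart were broken up, into 37 pieces. Those 15 peaks were 5.79 to 19.7 kb long (median 9.71 kb), and 32.3 to 95.01% of their length was covered. Their densities ran from 0.745 to 1.16 in the pieces (median 0.870) and from 1.098 to 1.98 in the control (median 1.39). Each of the 15 was lower in the pieces, with log2 ratios of -1.05 to -0.30. The next 6 windows held 9 each, among them chromosome 9 from 127000001 to 128000000 (9 of 17 with a counterpart) and chromosome 19 from 19000001 to 20000000 (9 of 22).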

How the data were processed

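HepG2 H3K36me3 ChIP-seq was analysed from the deposited peak tables of 2 conditions. The submitters' processing notes name FastQC 0.11.5, Bowtie 1.1.2 and hg19. The caller, per the file headers, was MACS 1.4.2, run on 1 merged immunoprecipitate and 1 merged input alignment per condition, with a p-value limit of 1e-05, 1 duplicate tag per position and the larger dataset scaled to the smaller. Deposited tag counts are whole numbers per peak after duplicate removal. The deposited score is minus 10 times the log10 of the peak's p-value. The deposited fold enrichment is a ratio over local input, and the deposited FDR is in percent; these and the score are the authors' values and serve only within a list. Filtered inputs held 69095038 tags in the knockdown and 67158956 in the control, and depth leaves counting intervals only. The shorter peak lists were not used.

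Overlaps, gaps and covered length were computed with Python 3.11.15, pandas 2.3.3, NumPy 2.4.6 and SciPy 1.17.1, tested on simulated data and checked against bedtools 2.31.1; plots used matplotlib 3.10.9. Density is tags per kb per 1000000 filtered tags over each list's own bounds, with Poisson 95% intervals. Several pieces were summed. Shares carry exact binomial 95% intervals. No test between conditions was possible with 1 pooled list each, and peaks are not replicates. Named peaks followed a rule: highest control fold enrichment (5), most pieces (3), widest and narrowest gap (3 each), highest and lowest density ratio at 500 or more control tags (3 each), either side of the limits (2 each) and the top 2 single-match peaks. The peaks, the rule and the bins were chosen with earlier results of these data known. Planned results by gene, with their gene lists, and sequences were not run, since the reference table at hand is on GRCh38.p14.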

Additional observations from a re-analysis of the deposited data

How the results depend on the processing

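All settings gave fewer than or as many as 2405 broken-up peaks, and every median log2 density ratio was below 0. With an FDR of 5% or less in both lists, 8 broken-up peaks were left, 0.985% of those with a counterpart; their median widest gap was 316.5 bp, 95.5% of their length was covered, the log2 ratio was -0.84 and the summit was in a piece in 100% of them. A score of 100 or more gave 1279 peaks (15.4%), a gap of 713 bp, 69.6% covered and the summit in a piece in 96.8%. A fold enrichment of 5 or more gave 98 (4.32%), 641.5 bp, 79.8%, -0.81 and 100%. Merging knockdown peaks within 1000 bp left 1068 (8.74%), with 2198 bp, 58.5% and 93.6%; within 3000 bp it left 353 (2.88%), with 4084 bp, 49.7% and 91.2%. Here the merging itself removes short gaps. Control peaks under 10 kb gave 824 (9.33%), 440.5 bp, 72.0%, -0.66 and 93.6%. With at least 50% of a piece inside the control peak the log2 ratio was -0.77, and with all tags as depth -0.74. The merges that follow were chosen after seeing the data. Knockdown peaks merged within 300 bp gave 14.4% of peaks broken up, a gap of 1353.5 bp and 63.9% covered. Both lists merged within 300 bp gave 15.8%, 1489 bp and 62.1%, and within 1000 bp 1040 peaks (11.4%), 2632.5 bp and 54.9%. The log2 ratios there, -0.71 and -0.63, are not comparable with the main value. Control tags were divided by a length that includes the merged gaps, which have no tag counts, and knockdown tags by called length alone. The summit shares, 89.1% and 82.1%, are not comparable either, since they use the summit of the first control peak merged, not the highest. For the FDR, score and fold limits the cause was not tested. In these settings 18 other values stayed within 1.5 times or inside their intervals. No paired analysis was possible because each peak list came from merged replicates, and so no replicate could be left out. Depth limits single short pieces most: those of 64 tags had intervals of 0.520 to 0.862 in density.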
